A study of Mus musculus with 32 samples.

Results

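The exencephalic and the non-exencephalic type II cadherin double-knockout (DKO) midbrain (Mb) were compared at E9.5, across 13338 of the 48576 genes listed and in 6 of the 32 libraries of the series. The 3 libraries headed DKO8-11 Mb form the exencephaly group (DKO_Ex), and the 3 headed DKO6-8 Mb form the cranial defect group (DKO_CD). A gene was a member where its FPKM (fragments per kilobase of transcript, scaled to the mapped fragments of the library) averaged at least 1 over these 6 libraries. The series covers forebrain (Fb) and midbrain of wild-type (WT), double-knockout and triple-knockout embryos, and the 6 WT Mb libraries serve here as a reference level only.

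Both groups were labelled B6C3F1 in strain and E9.5 in stage, and both carry CRISPR/Cas9 deletions of short stretches around the start codon of 2 of the genes Cdh6, Cdh8 and Cdh11, present in all tissues. The labels give DKO_Ex as a Cdh8.11 double knockout with exencephaly, that is, an open cranial neural tube, and DKO_CD as a Cdh6.8 double knockout with a cranial defect. The methods of the study instead describe both groups as Cdh8/11 double mutants, in which DKO_CD had a closed but elongated Mb. Genotype and phenotype can therefore not be told apart if the labels hold, and the genotype of the remaining cadherin gene was not given in the sources used here. The headings inside the deposited files and the records that list those files name opposite groups for all 12 DKO files of both tissues. The headings were followed, and grouping by record would turn the sign of each difference below with the same p-value. Nothing in the labels states whether a library came from 1 embryo or several, so p-values measure the spread between these libraries.

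Type II cadherins are calcium-dependent adhesion molecules that sort neuroepithelial cells into compartments, and their cytoplasmic tails bind catenins that link them to the apical actin belt. Closure of the cranial neural tube needs apical constriction of that belt, planar polarity and dorsolateral bending, and its failure in the Mb gives exencephaly. The midbrain itself is patterned along its length by the isthmic organizer, which secretes Fgf8 and Wnt1, and across it by ventral Shh and by dorsal Bmp and Wnt signals.

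The 3 targeted genes were all still listed above 0. Cdh6 was listed at 3.12, 2.47 and 1.86 FPKM in DKO_Ex and at 1.76, 2.11 and 1.29 FPKM in DKO_CD, within the WT range of 1.04 to 3.55 FPKM. The 4 triple-knockout Mb libraries listed Cdh6 at 0.345, 0.353, 0.388 and 3.10 FPKM, so none of the 6 DKO libraries was at the level of the 3 lowest of these. Cdh8 was listed at 1.63, 2.49 and 1.67 FPKM in DKO_Ex and at 1.47, 1.005 and 1.25 FPKM in DKO_CD. For Cdh8, 5 of the 6 WT libraries lay above all of them, at 3.45 to 10.1 FPKM, and the remaining one stood at 1.14 FPKM. Cdh11 was listed at 18.4, 17.6 and 18.7 FPKM in DKO_Ex and at 22.4, 27.2 and 16.6 FPKM in DKO_CD, with WT at 17.9 to 28.7 FPKM. The deletions are short against the whole transcript, so that these gene-level values do not check the alleles directly. None of the 3 genes passed the test between the DKO groups, with log2 differences of 0.35 ± 0.26 (SE), 0.38 ± 0.26 and -0.24 ± 0.18 for Cdh6, Cdh8 and Cdh11 and limma adjusted p of 0.853, 0.844 and 0.853. All differences are DKO_Ex minus DKO_CD on the log2(FPKM + 1) scale, with n = 3 libraries a group, and they understate the change of genes at a low level.

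The libraries of the 2 groups were about as alike as those within a group. Pearson's r over the tested genes, a description of pairs of libraries with no test, was 0.944 to 0.949 within DKO_Ex, 0.934 to 0.939 within DKO_CD and 0.931 to 0.945 between them. Depth, estimated from the steps between low FPKM values, was 3074000 to 3230000 fragments in DKO_Ex and 2462000 to 2741000 in DKO_CD. Every DKO_Ex library was thus the deeper, with an exact two-sided permutation p of 0.1, the smallest that 3 against 3 allows, and its part in the results was not tested. By Xist and the Y-linked genes, 1 DKO_Ex and 2 DKO_CD libraries came from male tissue.

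Few genes differed between the exencephalic and the non-exencephalic Mb. Of the 13338 genes tested with limma, 3 rose in DKO_Ex (0.0225%) and 3 fell (0.0225%) at an adjusted p under 0.05. All 6 were pseudogenes or short non-coding genes, and none of the 11612 protein-coding genes tested passed, the lowest adjusted p among them being 0.112. The longest transcripts of the 6 had 111 to 414 bases, while 4.2% of all tested genes had 500 bases or fewer. An unadjusted p under 0.05 was reached by 407 genes higher in DKO_Ex (3.05%) and by 457 lower (3.43%). The 3 DKO_Ex values lay wholly above the 3 DKO_CD values for 862 genes (6.46%) and wholly below for 759 (5.69%). The median difference was 0.0077 with quartiles of -0.16 and 0.17, and 368 genes (2.76%) differed by at least 1 in either direction. The plot of differences against level shows the 6 genes that passed beside others of similar difference that did not.

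**Figure D1:**
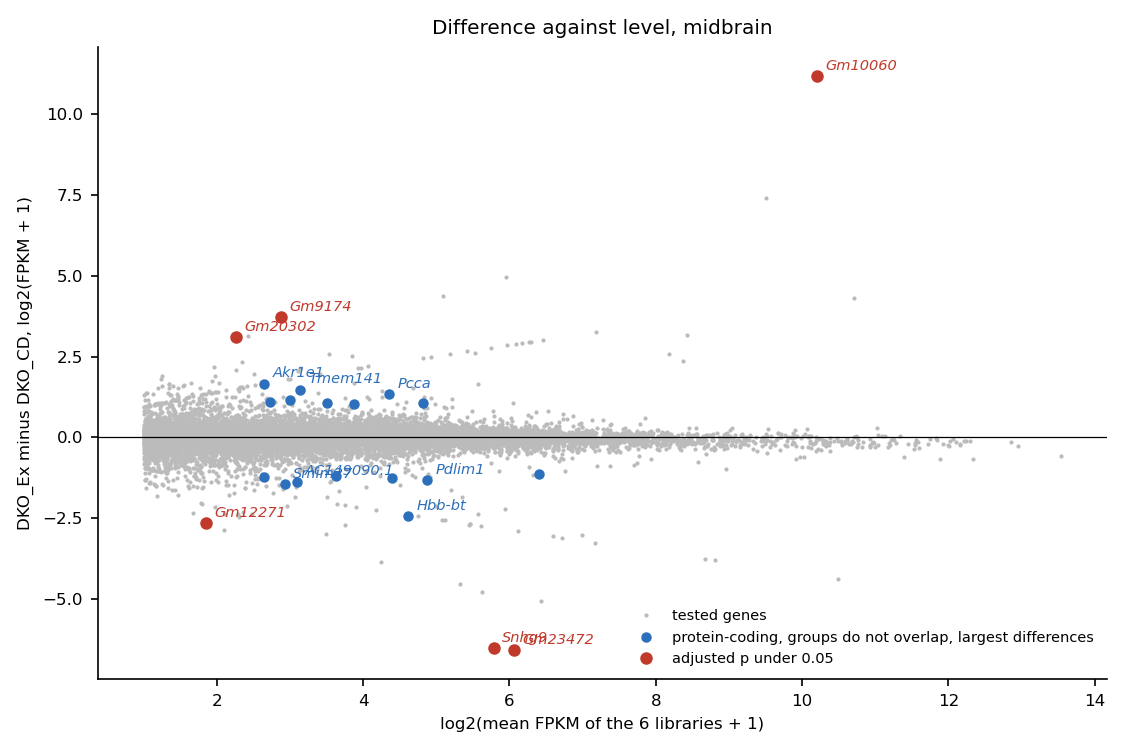
Difference of each tested Mb gene, DKO_Ex minus DKO_CD on the log2(FPKM + 1) scale (vertical), against its mean level over the 6 libraries as log2(mean FPKM + 1) (horizontal). Each grey point is a gene, red points are the 6 genes with a limma adjusted p under 0.05, and blue points are the 16 protein-coding genes with the largest differences among those whose groups did not overlap and whose mean was at least 5 FPKM.

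Each of the 6 genes was listed at 0 in all libraries of one group, so no fold is given. Among the tested genes, 133 had such a pattern, 63 with DKO_Ex at 0 and 70 with DKO_CD at 0. Gm10060, a processed pseudogene of 111 bases at chr8:19784746-19784856 on the plus strand (GRCm38), was listed at 1895, 3078 and 2121 FPKM in DKO_Ex and at 0 in all 3 DKO_CD libraries (adjusted p = 7.61e-07, limma). DKO_Ex and DKO_CD did not overlap, but WT spanned both, with 5 libraries at 0 and 1 at 3818 FPKM. Over all 32 libraries 23 listed this gene at 0, and the single DKO_Ex Fb library above 0 stood at 4751 FPKM. Gm10060 has a neighbour copy, Gm21769, at chr8:20122384-20122494 on the same strand, which was listed at 0 in all 6 libraries. Their transcripts differ by A24G, counted from 1 at the 5′ end with the Gm21769 base first, and are shown 5′ to 3′ from the GENCODE M21 annotation on GRCm38 because a read spanning other bases cannot tell them apart. The differing base is in capitals.
Gm10060: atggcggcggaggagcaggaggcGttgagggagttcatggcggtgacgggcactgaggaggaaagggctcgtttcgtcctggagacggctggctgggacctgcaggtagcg
Gm21769: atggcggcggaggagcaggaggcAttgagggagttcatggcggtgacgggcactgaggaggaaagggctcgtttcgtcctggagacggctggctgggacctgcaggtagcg
The same stretch is also found in 2610005L07Rik at 99.0% identity over 105 bases and in Nsfl1c, a p97 adaptor, at 90.5%. Nsfl1c itself was listed at 145, 101 and 136 FPKM in DKO_Ex and at 121, 143 and 125 FPKM in DKO_CD, a difference of -0.04 ± 0.15 (SE).

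Gm9174, a processed pseudogene of 255 bases at chr14:70360187-70360441 on the plus strand, was listed at 17.9, 11.3 and 8.95 FPKM in DKO_Ex and at 0 in DKO_CD (adjusted p = 0.00906, limma). In Fb the order was the other way round, with 2 of 3 DKO_Ex libraries at 0 and DKO_CD at 11.1, 12.3 and 29.4 FPKM. Its sequence is 98.8% identical to the whole coding sequence of Cdc26, a subunit of the anaphase-promoting complex at chr4:62383654-62408642 on the minus strand. The 3 differing positions, counted from 1 at the first base shown and with the Cdc26 base first, are G6T, A27G and C69G. They are in capitals in the sequences from GENCODE M21, shown to give the stretches over which the gene and its copy share every base.
Gm9174: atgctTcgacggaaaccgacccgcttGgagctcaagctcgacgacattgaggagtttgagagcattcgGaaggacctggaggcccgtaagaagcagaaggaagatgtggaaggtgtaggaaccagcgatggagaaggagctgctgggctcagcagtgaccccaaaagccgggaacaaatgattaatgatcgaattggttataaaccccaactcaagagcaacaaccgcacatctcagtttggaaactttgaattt
Cdc26: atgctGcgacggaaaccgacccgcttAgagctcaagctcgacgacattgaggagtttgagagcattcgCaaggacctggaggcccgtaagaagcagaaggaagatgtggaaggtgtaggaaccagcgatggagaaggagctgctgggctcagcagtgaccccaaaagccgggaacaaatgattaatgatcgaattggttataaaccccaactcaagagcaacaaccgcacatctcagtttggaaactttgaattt
Cdc26 was listed at 72.2, 66.8 and 50.6 FPKM in DKO_Ex and at 71.3, 54.6 and 71.9 FPKM in DKO_CD, a difference of -0.06 ± 0.17 (SE, adjusted p = 0.964). Cdc26 thus differed by less than the spread between libraries, at several times the level of its copy.

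Gm20302, a processed pseudogene of 275 bases at chr1:105574537-105574811 on the plus strand, was listed at 7.02, 8.70 and 7.02 FPKM in DKO_Ex and at 0 in DKO_CD (adjusted p = 0.00906, limma). In WT Mb 4 libraries were at 0 and 2 stood at 9.38 and 8.85 FPKM. Such near-equal values above 0 can come from few fragments, a counting error that the p-value does not include. The ribosomal protein gene Rpl37a, 93.0% identical to it, was listed at 1526, 1649 and 2262 FPKM in DKO_Ex and at 1972, 2180 and 2116 FPKM in DKO_CD, which overlap. Another copy, Gm4149, at 92.4% identity, had the opposite order to Gm20302, with 68.3, 65.8 and 80.2 FPKM against 99.7, 112 and 104 FPKM, and did not pass (adjusted p = 0.477). The copies of one parent gene therefore did not share a direction.

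The 3 genes that fell were listed at 0 in every DKO_Ex library. Snhg9, a non-coding snoRNA host gene whose longest transcript has 183 bases, lies at chr17:24719531-24719965 on the minus strand and is antisense to the ribosomal protein gene Rps2. It was listed at 203, 70.3 and 51.5 FPKM in DKO_CD (adjusted p = 0.00906, limma), and 5 of the 6 WT Mb libraries were at 0 with 1 at 173 FPKM. The libraries were directional and the reads were aligned with a strand-specific setting, but the strand setting of the FPKM step was not given in the sources used here, and reads of Snhg9 and Rps2 can be told apart only where that step used the strand. Rps2 was listed at 253, 264 and 256 FPKM in DKO_Ex and at 289, 219 and 399 FPKM in DKO_CD, which overlap. Gm12271, a processed pseudogene of 414 bases at chr11:61416402-61416815, was listed at 5.11, 5.55 and 5.10 FPKM in DKO_CD (adjusted p = 0.0201, limma). In WT Mb it stood at 2.44, 2.48 and 5.19 FPKM, with 3 libraries at 0. Such near-equal values can come from the same few fragments in each library, a counting error that the p-value does not include. Its source H3f3a, which encodes histone H3.3 and is 93.9% identical over the aligned part, was listed at 433, 417 and 442 FPKM in DKO_Ex and at 452, 447 and 458 FPKM in DKO_CD. For H3f3a the groups did not overlap, by a difference of only -0.07 ± 0.07 (SE).

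Gm23472, an snRNA gene of 191 bases at chr1:72236946-72237136, was listed at 52.9, 55.2 and 287 FPKM in DKO_CD (adjusted p = 0.0261, limma). It has 13 near-identical copies, of which 1, Gm23444, matches it at every base. In the first 2 DKO_CD libraries Gm23472, Gm24497 and Gm25360 were listed at the same values, 52.9 and 55.2 FPKM. Gm24497 was above 0 in all 6 libraries, at 35.5, 50.2 and 35.6 FPKM in DKO_Ex and at 52.9, 55.2 and 246 FPKM in DKO_CD. In DKO_Ex library 1, Gm23444 and Gm24497 likewise shared the value of 35.5 FPKM. A value shared by genes of 191 bases in one library can be that of the same few fragments. The first 2 DKO_CD values of Gm23472 may thus lie near the floor, which was not tested. How the authors divided reads among such copies was not given in the sources used here, so the values of single copies are uncertain.

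**Figure D2:**
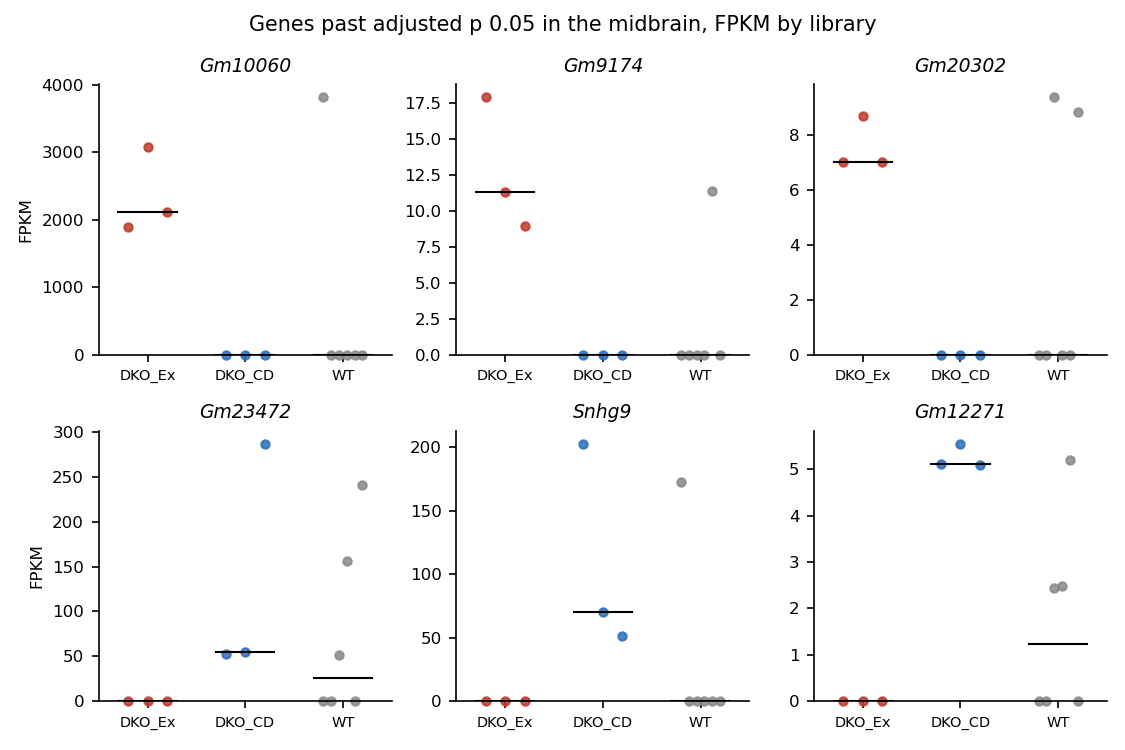
FPKM (vertical) of the 6 genes with a limma adjusted p under 0.05 in the 3 DKO_Ex, 3 DKO_CD and 6 WT Mb libraries (horizontal), each point a library and each bar the group's median. In all 6 panels one DKO group sits at 0, while WT libraries lie both at 0 and above it.

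Gm10060 alone passed with each of the 6 libraries left out in turn, at adjusted p of 1.57e-06 to 4.6e-05 by limma. Its values were all or none over the series, at 0 in 23 libraries and at 1895 FPKM or more in 9. FPKM divides by transcript length, so at 111 bases a high value can rest on fewer fragments than in a longer gene. How many fragments lay behind Gm10060 was not settled, and leaving out libraries does not test it. Gm9174, Gm20302, Gm23472 and Snhg9 no longer passed without any 1 of the DKO_Ex libraries or without DKO_CD library 2, and Gm12271 without any 1 of the 6. With all 4 Mb groups in one fit none of the 6 passed (786 genes at an unadjusted p under 0.05, limma), nor did any gene among those at 1 FPKM or more in every library (757 genes).

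The protein-coding genes nearest to the threshold are described here although none passed. Tmem141, which encodes a small transmembrane protein, at chr2:25620067-25622005 on the minus strand, was listed at 13.8, 9.75 and 12.5 FPKM in DKO_Ex and at 3.60, 3.33 and 3.97 FPKM in DKO_CD. Every DKO_Ex library stood above the 6 WT libraries, which spanned 2.79 to 6.82 FPKM, and DKO_CD stood within them. The difference was 1.48 ± 0.18 (SE, limma adjusted p = 0.112), the lowest p of any protein-coding gene. Nkx6-2, a homeodomain factor of ventral progenitors, was listed at 42.3, 45.3 and 42.7 FPKM against 24.99, 25.3 and 27.3 FPKM, with WT at 20.01 to 36.8 FPKM. Its difference was 0.73 ± 0.10 (SE, adjusted p = 0.188). Lin28a, an RNA-binding protein that blocks let-7 maturation in early progenitors, was listed at 121, 128 and 130 FPKM against 84.9, 86.9 and 83.3 FPKM (0.57 ± 0.08, adjusted p = 0.215). Here DKO_Ex lay within the WT range of 84.1 to 173 FPKM and DKO_CD around its lower end. Pcca, a subunit of the mitochondrial propionyl-CoA carboxylase, was listed at 30.3, 34.5 and 20.6 FPKM against 10.47, 10.34 and 10.56 FPKM (1.33 ± 0.19, adjusted p = 0.215), and WT spanned both groups at 4.57 to 33.8 FPKM.

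The largest differences among protein-coding genes of at least 5 FPKM whose groups did not overlap are a description of size, since the rule chose them for it. On the higher side in DKO_Ex, beside Tmem141 and Pcca, stood Akr1e1 (1.67), an aldo-keto reductase, Gm10800 (1.14), St6galnac3 (1.09), a sialyltransferase, Rpp40 (1.06), a subunit of RNase P, Mtbp (1.05), an Mdm2-binding protein, and Zhx2 (1.04), a transcriptional repressor. For Zhx2 a single DKO_Ex library at 44.4 FPKM stood against 8.17 and 8.73 FPKM in the others. Leaving out 1 library lowered the difference to 0.28 for Zhx2 (without DKO_Ex library 3), 0.69 for Gm10800 (without DKO_Ex library 2) and 0.66 for Rpp40 (without DKO_CD library 2). Mtbp was even within groups, at 16.0, 11.9 and 15.2 FPKM against 5.98, 6.12 and 7.06 FPKM (adjusted p = 0.250).

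On the lower side stood Hbb-bt (-2.43), an adult beta-globin gene, Smim27 (-1.45), AC149090.1 (-1.36), Pdlim1 (-1.31), an actin-associated PDZ-LIM protein, Ccdc127 (-1.25), Cmtm8 (-1.22), Nudt14 (-1.20), a sugar nucleotide hydrolase, and Rpl29 (-1.14), a protein of the large ribosomal subunit. Hbb-bt was listed at 6.89, 6.66 and 2.76 FPKM in DKO_Ex and at 35.1, 78.1 and 11.6 FPKM in DKO_CD, with WT at 3.92 to 15.8 FPKM. Hbb-bt shares nearly all of its sequence with its neighbour Hbb-bs, and the split between them is uncertain. Rpl29 was listed at 51.0, 37.5 and 70.9 FPKM against 114, 116 and 114 FPKM, with WT between, at 44.8 to 110 FPKM. Pdlim1 was listed at 22.1, 9.43 and 17.2 FPKM against 30.8, 46.7 and 43.7 FPKM, and here DKO_CD stood above all 6 WT libraries, whose highest was 24.6 FPKM. The adjusted p of the genes in these groups of 8 lay above 0.05 in every case.

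**Figure D3:**
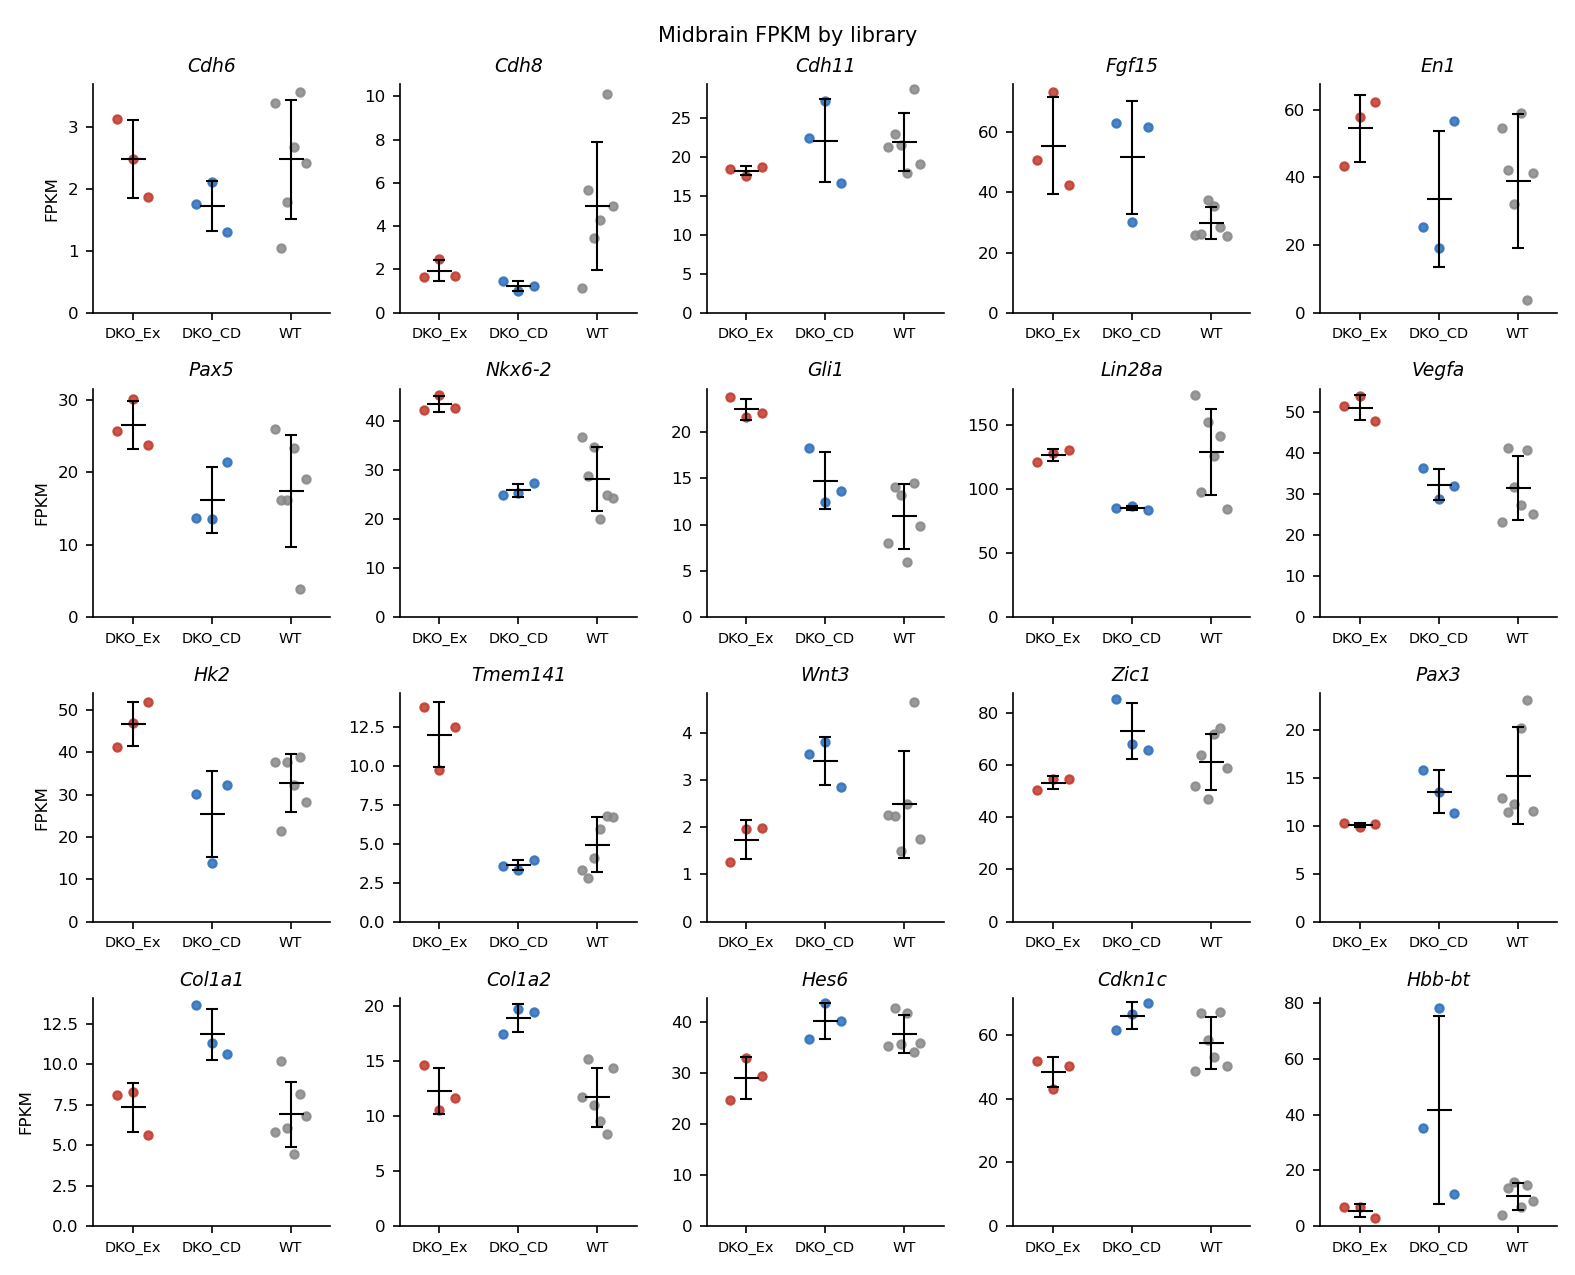
FPKM (vertical) of 20 genes in the 3 DKO_Ex, 3 DKO_CD and 6 WT Mb libraries (horizontal). Points are libraries and bars the mean ± SD. Tmem141, Nkx6-2, Gli1, Vegfa and Hk2 show DKO_Ex above both other groups, Col1a1 and Col1a2 show DKO_CD highest by mean, and Fgf15 shows DKO_Ex and DKO_CD overlapping, with both means above WT.

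The gene groups below follow the roles of the genes in cranial development. None of the members passed at an adjusted p under 0.05, and each group is described by its counts and its median, beside the median of 0.0077 over all tested genes and the shares of 6.46% higher and 5.69% lower without overlap. With 1 library left out, the sign of the median turned for type II cadherins, Wnt and beta-catenin targets, Hippo signalling, apical constriction, apical polarity, proneural and early neuronal, imprinted, basement membrane, mitochondrially encoded, forebrain, macrophage and primitive red cell genes, and for the genes known from earlier results. The plot of gene lists shows their spread.

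**Figure D4:**
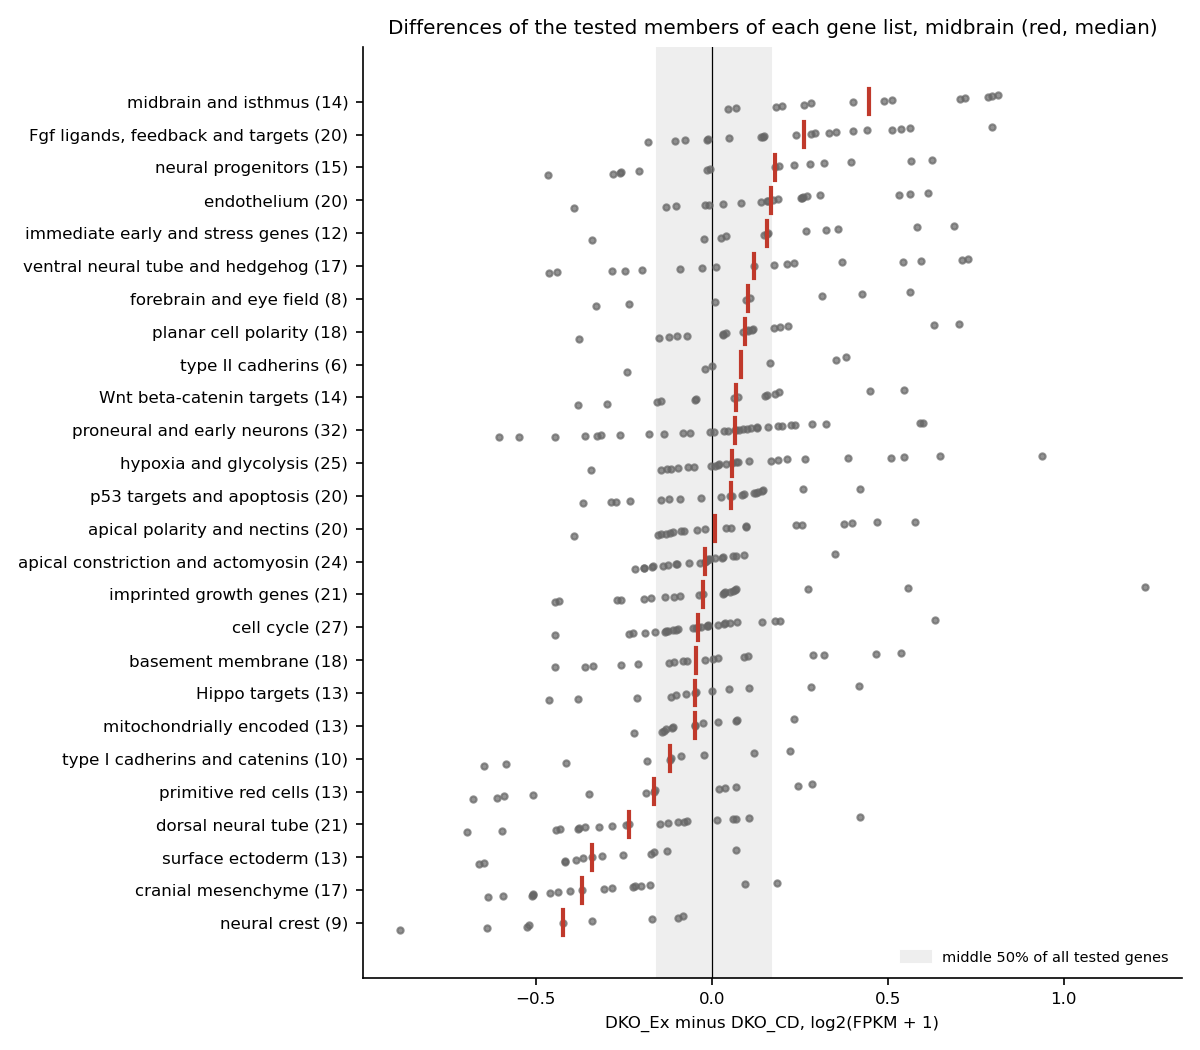
Differences of the tested members of 26 gene lists in the Mb (horizontal, DKO_Ex minus DKO_CD, log2(FPKM + 1)), with the number of members after each name. Grey dots are genes, red bars medians, and the grey band holds the middle 50% of all tested genes. The midbrain and isthmus list has the highest median, 0.45, and the neural crest list the lowest, -0.42.

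Among the adhesion molecules, 6 of 12 type II cadherins were tested, 3 with a positive and 3 with a negative difference, and their median was 0.08. Cdh8 was the only one whose groups did not overlap. Of the 3 tested members that were not targeted, Cdh24 was the highest, at 6.47, 10.4 and 5.95 FPKM against 8.57, 5.93 and 7.91 FPKM. All 10 type I cadherins and catenins in the files were tested, 8 of them negative, with a median of -0.12. Cdh1, the epithelial cadherin, was listed at 2.83, 1.91 and 1.89 FPKM against 1.57, 6.61 and 5.31 FPKM, which overlap. Ctnnb1, which encodes beta-catenin, was listed at 270, 286 and 282 FPKM against 332, 290 and 288 FPKM, without overlap but only -0.12 ± 0.09 (SE) apart.

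Among 20 tested genes of apical polarity and nectins the median was 0.01, with 3 higher and 1 lower without overlap (over all tested genes, 6.46% and 5.69%). Nectin1, a cell adhesion molecule that cooperates with cadherins, was listed at 12.4, 14.3 and 15.002 FPKM against 9.27, 8.70 and 8.84 FPKM (0.58 ± 0.14, adjusted p = 0.703). Afdn, the actin-binding partner of nectins, was listed at 45.8, 63.4 and 49.7 FPKM against 45.7, 33.2 and 35.0 FPKM. Numb, an endocytic adaptor at apical junctions, was listed at 9.82, 11.7 and 9.91 FPKM against 16.8, 12.8 and 12.8 FPKM (-0.39 ± 0.16, adjusted p = 0.760). The 24 tested genes of apical constriction and actomyosin spanned only -0.22 to 0.35 around a median of -0.02. Of these only Actg1, the cytoplasmic gamma-actin, did not overlap, at 1157, 1145 and 1193 FPKM against 1321, 1361 and 1311 FPKM (-0.19 ± 0.07).

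The planar cell polarity list, whose core members orient cells within an epithelial sheet, had a median of 0.10 over 18 tested genes, 13 of them positive. Dvl1, a cytoplasmic transducer of Wnt and polarity signals, was listed at 21.8, 31.4 and 32.0 FPKM against 18.4, 16.1 and 16.2 FPKM (0.70 ± 0.17, adjusted p = 0.742). Ror1, a Wnt5a receptor, went the other way, at 3.86, 3.29 and 3.24 FPKM against 4.25, 5.77 and 4.44 FPKM. Celsr2, the most abundant member, was listed at 44.4, 42.9 and 51.6 FPKM against 44.1, 46.5 and 39.6 FPKM. The 13 tested targets and factors of Hippo signalling had a median of -0.05, and the 14 tested targets of Wnt and beta-catenin a median of 0.07.

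All 14 genes of the midbrain and isthmus list had a positive difference, with a median of 0.45. Pax5, an isthmic paired-box factor, was the only one whose groups did not overlap, at 25.7, 30.2 and 23.8 FPKM against 13.6, 13.5 and 21.5 FPKM (0.71 ± 0.20, adjusted p = 0.752), and 1 of 14 is near the share of 6.46% over all genes. En1, a homeodomain factor of the midbrain and anterior hindbrain, was listed at 43.4, 57.7 and 62.4 FPKM against 25.4, 19.1 and 56.5 FPKM. Otx2, which marks fore- and midbrain, was listed at 68.1, 158 and 132 FPKM against 163, 20.2 and 93.3 FPKM. Both genes spread widely between the DKO_CD libraries, since the second library was low for Otx2 and En1 and the first for Fgf8, at 3.47 FPKM against 16.1 and 28.1 FPKM. The summed FPKM of the list was 360 to 495 in DKO_Ex, 207 to 453 in DKO_CD and 223 to 486 in WT. Without DKO_CD library 1 or 2 the median of the list was 0.25, and without DKO_CD library 3 it was 0.79. In Fb, where En1, En2, Gbx2 and Cnpy1 were not tested, the other members of the list had a median of -0.16.

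The Fgf list of ligands, feedback inhibitors and targets had 15 of 20 tested members positive, with a median of 0.26, which was 0.054 without DKO_CD library 1 and 0.12 without DKO_Ex library 2. Fgf15, a ligand of the dorsal midbrain, was listed at 50.8, 73.5 and 42.5 FPKM in DKO_Ex and at 63.0, 30.1 and 62.0 FPKM in DKO_CD, a difference of 0.14 ± 0.32 (SE, adjusted p = 0.955). The DKO groups overlapped, and in 5 of the 6 libraries Fgf15 exceeded the WT maximum of 37.4 FPKM. The receptor Fgfr1 was listed at 38.1, 52.0 and 41.7 FPKM against 34.0, 37.9 and 34.3 FPKM. The feedback inhibitors Spred2 (19.9, 22.4 and 19.6 against 15.3, 14.96 and 17.5 FPKM) and Spred3 (11.97, 14.3 and 11.5 against 8.91, 10.1 and 8.04 FPKM) also did not overlap. Dusp4, a phosphatase that dampens Erk, was listed at 12.8, 14.6 and 6.16 FPKM against 11.9, 10.7 and 13.7 FPKM.

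Genes of neighbouring brain regions were mostly low in all 6 libraries. Among 16 forebrain and eye field genes 8 were tested, with a median of 0.10 that ranged from -0.17 without DKO_CD library 3 to 0.85 without DKO_CD library 1 and was also negative without DKO_Ex library 2 or DKO_CD library 2. Of the list, Six6, Rax and Vax1 were at or near 0. Pax6, the highest of them, was listed at 17.1, 30.6 and 16.4 FPKM against 40.0, 10.9 and 7.41 FPKM. The summed FPKM of a list ranged from 25.3 to 63.7 in DKO_Ex and from 15.5 to 76.9 in DKO_CD for the forebrain list, and from 1.54 to 5.18 and from 2.02 to 8.65 for a list of 9 hindbrain genes.

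Across the dorsoventral axis, 16 of 21 dorsal neural tube genes had a negative difference, with a median of -0.24, and 4 did not overlap, all on the lower side (5.69% over all tested genes). The median was -0.061 without DKO_Ex library 3 and -0.10 without DKO_CD library 1. Wnt3, a roof plate ligand, was listed at 1.26, 1.97 and 1.98 FPKM in DKO_Ex and at 3.57, 3.82 and 2.85 FPKM in DKO_CD (-0.70 ± 0.23, adjusted p = 0.760). Zic1, a zinc finger factor of the dorsal neural tube, was listed at 50.3, 54.7 and 54.8 FPKM against 85.5, 68.2 and 65.8 FPKM (-0.44 ± 0.12, adjusted p = 0.748). Pax3, a dorsal paired-box factor, was listed at 10.3, 9.86 and 10.2 FPKM against 15.8, 13.5 and 11.3 FPKM, and all 3 DKO_Ex values were below the lowest WT library at 11.4 FPKM. Rspo1, a Wnt agonist, was listed at 13.5, 15.4 and 15.9 FPKM against 17.5, 22.4 and 17.0 FPKM. The summed FPKM of the list did not overlap either, at 231 to 256 in DKO_Ex and 260 to 357 in DKO_CD, with WT spanning both at 203 to 313.

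The ventral neural tube and hedgehog list was mixed, with 10 of 17 tested members positive and a median of 0.12, which ranged from 0.043 without DKO_Ex library 2 to 0.32 without DKO_Ex library 3. Beside Nkx6-2, the hedgehog target Gli1 was listed at 23.8, 21.6 and 22.1 FPKM in DKO_Ex and at 18.3, 12.4 and 13.6 FPKM in DKO_CD (0.59 ± 0.16, adjusted p = 0.747). All DKO_Ex values exceeded the highest WT library at 14.5 FPKM. Nkx2-2, a factor of the most ventral progenitors, was listed at 4.61, 2.83 and 2.06 FPKM against 1.87, 0.831 and 1.86 FPKM. Gas1, a hedgehog co-receptor of more dorsal cells, went the other way, at 40.5, 36.9 and 34.5 FPKM against 47.3, 59.8 and 46.5 FPKM (-0.44 ± 0.13, adjusted p = 0.753).

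The neural progenitor list, all 15 of its genes tested, held members that did not overlap in both directions, 4 higher and 3 lower (over all tested genes, 6.46% and 5.69%), around a median of 0.18 that was 0.093 without DKO_CD library 2 and 0.12 without DKO_Ex library 2. Besides Lin28a, the progenitor factor Sox3 was listed at 92.2, 77.5 and 90.7 FPKM in DKO_Ex and at 60.5, 76.2 and 61.0 FPKM in DKO_CD. Lower in DKO_Ex were Hes6, a promoter of neuronal differentiation, at 24.6, 32.8 and 29.3 FPKM against 36.6, 43.7 and 40.0 FPKM, and the radial glial fatty acid binding protein Fabp7, at 61.0, 70.8 and 64.5 FPKM against 82.2, 80.5 and 72.6 FPKM. Vim, which encodes the intermediate filament vimentin, was listed at 369, 349 and 389 FPKM against 511, 423 and 398 FPKM. The 32 tested proneural and early neuronal genes had a median of 0.07, and of these only Dll1, a Notch ligand of nascent neurons, did not overlap, at 18.1, 18.4 and 22.4 FPKM against 14.9, 15.2 and 17.6 FPKM.

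The 27 cell cycle genes had a median of -0.04, with 18 negative. Cdkn1c, which encodes the imprinted cell cycle inhibitor p57, was listed at 51.8, 42.9 and 50.3 FPKM in DKO_Ex and at 61.6, 66.6 and 70.0 FPKM in DKO_CD (-0.45 ± 0.11, adjusted p = 0.742). Cenpf, a kinetochore protein, was listed at 28.3, 23.1 and 38.2 FPKM against 18.4, 18.0 and 19.2 FPKM (0.63 ± 0.18, adjusted p = 0.753). Of the 27 genes, 5 did not overlap on the lower side and 1 on the higher (over all tested genes, 5.69% and 6.46%), and Pcna, the most abundant, was listed at 344, 300 and 377 FPKM against 366, 373 and 353 FPKM. The 20 tested p53 targets and apoptosis genes had a median of 0.06, and Trp53 itself was listed at 131, 124 and 139.9 FPKM against 118, 126 and 112 FPKM.

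Several lists mark tissue that a dissected Mb can carry beside the neuroepithelium, and in bulk tissue fewer cells of a type and less RNA per cell cannot be told apart. All 9 tested of 14 neural crest genes had a negative difference, with a median of -0.42, and for none of them did the groups separate. Without DKO_Ex library 3 this median was -0.28, and without DKO_CD library 2 the medians were -0.10 for neural crest and -0.20 for the cranial mesenchyme described next. Dlx2 was listed at 1.61, 0.977 and 0.398 FPKM against 1.10, 3.66 and 3.64 FPKM (-0.88 ± 0.41, adjusted p = 0.778). Among 23 cranial mesenchyme genes 17 were tested, of which 15 were negative, with a median of -0.37. Their collagens did not overlap, with Col1a1 at 8.109, 8.32 and 5.62 FPKM against 13.7, 11.3 and 10.6 FPKM (-0.63 ± 0.19, adjusted p = 0.753) and Col1a2 at 14.6, 10.55 and 11.6 FPKM against 17.4, 19.7 and 19.4 FPKM (-0.59 ± 0.15, adjusted p = 0.742). For Col1a2 the 3 DKO_CD libraries stood above all WT libraries, whose highest was 15.1 FPKM. The summed FPKM was 50.4 to 67.8 in DKO_Ex and 59.6 to 102 in DKO_CD for neural crest, and 625.4 to 803 and 753 to 925 for mesenchyme.

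Surface ectoderm, the epithelium that borders the neural folds, gave 12 of 13 tested genes (of 18 listed) with a negative difference and a median of -0.34, which was -0.86, -0.090 and -0.081 without DKO_CD library 1, 2 and 3 and -0.20 without DKO_Ex library 2. Its summed FPKM was 58.1 to 73.7 in DKO_Ex and 38.3 to 144 in DKO_CD, so that the DKO_CD libraries spanned the DKO_Ex ones. Krt8, a simple epithelial keratin, was listed at 16.5, 14.5 and 17.2 FPKM against 12.7, 32.4 and 19.7 FPKM, while Krt14 was at 0 in all 6 libraries. The part of these adjacent tissues in the dorsal neural tube values was not tested.

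The endothelial list, all 20 of its genes tested, had 15 positive and a median of 0.17, which was 0.012 without DKO_CD library 3 and 0.083 without DKO_Ex library 1. Plvap, a protein of endothelial diaphragms, was listed at 22.3, 17.1 and 19.6 FPKM in DKO_Ex and at 11.3, 12.99 and 14.7 FPKM in DKO_CD (0.56 ± 0.16, adjusted p = 0.747). Flt1, a receptor for Vegfa, was listed at 3.94, 3.46 and 3.22 FPKM against 2.36, 2.11 and 1.48 FPKM, and Sox7, an endothelial transcription factor, at 2.72, 2.74 and 2.99 FPKM against 2.05, 1.52 and 1.38 FPKM. The summed FPKM of the list overlapped, at 190 to 231 and 148 to 198. Primitive red cell genes, 13 in the files and all tested, had a median of -0.16, and their sum was 7137 to 10414 FPKM in DKO_Ex, 6553 to 22409.6 FPKM in DKO_CD and 5559 to 23979 FPKM in WT. Hbb-y, an embryonic globin, was listed at 3475, 2620 and 2123 FPKM against 7637, 4395 and 2363 FPKM, with WT at 1629 to 9048 FPKM. Hbb-y was highest in DKO_CD library 1 and Hbb-bt in DKO_CD library 2, and the part of red cell content in the Hbb-bt difference was not tested.

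Macrophage genes were low, with 2 of 12 tested and sums of 2.16 to 6.97 FPKM in DKO_Ex and 5.03 to 10.9 FPKM in DKO_CD. Spi1, a myeloid transcription factor, was listed at 0.167, 0 and 0.166 FPKM against 3.98, 0.872 and 1.13 FPKM (-1.29 ± 0.44, adjusted p = 0.760), and WT was at 0 to 0.369 FPKM. Laptm5, a haematopoietic lysosomal protein, was listed at 1.26, 4.66 and 1.15 FPKM against 0.742, 2.56 and 1.47 FPKM.

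Among the hypoxia and glycolysis genes, 25 tested with a median of 0.06, 3 did not overlap on the higher side (6.46% over all tested genes). Vegfa, which encodes the main angiogenic growth factor, was listed at 51.4, 53.9 and 47.8 FPKM in DKO_Ex and at 36.3, 28.7 and 31.9 FPKM in DKO_CD (0.65 ± 0.12, adjusted p = 0.418). All 3 DKO_Ex libraries were above the highest WT library at 41.2 FPKM. Hk2, a hexokinase, was listed at 41.4, 46.9 and 51.9 FPKM against 30.2, 13.7 and 32.3 FPKM (0.94 ± 0.31, adjusted p = 0.760), and Slc2a1, a glucose transporter, at 169, 188 and 190 FPKM against 139, 89.6 and 154 FPKM (0.55 ± 0.20, adjusted p = 0.760). The forebrain differences of these 3 genes were 0.48, 0.60 and 0.36, in the same direction. Higd1a, a mitochondrial protein induced by low oxygen, went the other way, at 34.2, 34.1 and 41.1 FPKM against 45.7, 45.4 and 48.1 FPKM.

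The 12 tested immediate early and stress genes had a median of 0.16. Atf3, a stress-induced factor, was listed at 4.62, 4.20 and 3.42 FPKM against 2.43, 1.80 and 2.23 FPKM (0.69 ± 0.21, adjusted p = 0.760). Among 21 tested imprinted growth genes, with a median of -0.02, the maternally expressed non-coding RNA Mirg was listed at 16.7, 17.2 and 19.6 FPKM against 9.88, 6.02 and 5.73 FPKM (1.23 ± 0.21, adjusted p = 0.340). Its neighbour Meg3 was listed at 54.9, 79.2 and 69.1 FPKM against 69.2, 40.2 and 33.1 FPKM, which overlap. Among 18 tested basement membrane genes, with a median of -0.04, Lamb2, a laminin chain, was listed at 11.5, 10.2 and 11.1 FPKM against 14.7, 16.1 and 14.8 FPKM, both below the WT range of 17.2 to 21.5 FPKM. The proteoglycan Agrn went the other way, at 55.7, 62.2 and 60.9 FPKM against 49.2, 47.4 and 45.8 FPKM.

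The 13 mitochondrially encoded genes had a median of -0.05 and sums of 34869 to 44656 FPKM in DKO_Ex and 37403 to 43791 FPKM in DKO_CD. Of 13 genes known from earlier results of these data 11 were tested, with a median of -0.13. Gm17538, a pseudogene, was listed at 0 in all DKO_Ex and WT Mb libraries and at 5.12, 5.51 and 0 FPKM in DKO_CD. Around the targeted loci, 277 tested genes within 20 Mb of Cdh8 or Cdh11 on chromosome 8 had a median of 0.0085, and 55 within 20 Mb of Cdh6 on chromosome 15 a median of -0.025. None passed in either window, where 18 and 3 genes did not overlap on the higher side and 15 and 4 on the lower, beside shares of 6.46% and 5.69% over all tested genes.

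The forebrain of the same groups was compared in the same way. In Fb, 1 of 13282 genes passed (0.00753%) and 736 (5.54%) reached an unadjusted p under 0.05. The gene that passed was the small nucleolar RNA Snora73a. It was listed at 34.5, 29.8 and 59.1 FPKM in DKO_Ex Fb, at 0 in 2 DKO_CD Fb libraries and at a value that rounds to 0 in the remaining one. In Mb it overlapped, at 10.9, 34.1 and 24.8 FPKM against 104, 37.8 and 7.89 FPKM. The difference between groups differed by tissue, by the interaction term of a limma fit over both tissues, for 2 of 13393 genes (0.0149%), and 676 genes (5.05%) reached an unadjusted p under 0.05.

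Tmem141 was 1 of these 2, with a Mb difference 2.02 ± 0.23 (SE) above that of the Fb (adjusted p = 0.0183, limma). It no longer passed with the Mb and Fb libraries of one group and number taken as a block (adjusted p = 0.315), nor without DKO_Ex Mb library 1 or 3, DKO_CD Mb library 2 or DKO_CD Fb library 2 or 3 (adjusted p of 0.0609 to 0.114). In Fb the order was turned, at 4.02, 4.82 and 4.43 FPKM in DKO_Ex and 5.87, 7.14 and 7.79 FPKM in DKO_CD. The other was Gm20302, which was listed at 0 in all 6 DKO Fb libraries (adjusted p = 0.0135). It did not pass with the block either (adjusted p = 0.315), nor without any 1 of the DKO_Ex Mb libraries or DKO_CD Mb library 2, nor with a pseudocount of 0.1 FPKM. Rpp40 also pointed in opposite directions, 1.06 in Mb and -1.19 in Fb, but did not pass the interaction test, while St6galnac3 (1.09 and 0.86) and Hbb-bt (-2.43 and -1.48) pointed the same way in both. The Mb and Fb values share no library, and whether they come from the same embryos is not stated.

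**Figure D5:**
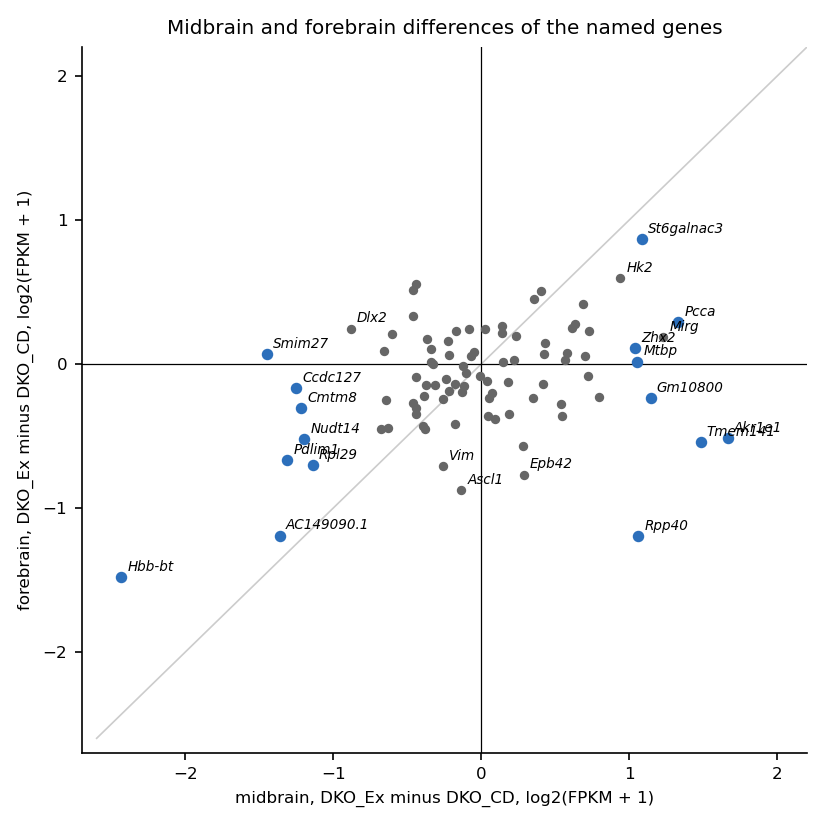
Difference of 90 named genes in the Mb (horizontal) and the Fb (vertical), DKO_Ex minus DKO_CD on the log2(FPKM + 1) scale. Each point is a gene, blue points are the 16 protein-coding genes chosen for the size of their Mb difference, and the grey line marks equal differences. St6galnac3 lies near the line and Hbb-bt above it with both differences negative, whereas Tmem141 and Rpp40 lie below the zero line of the Fb.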

How the data were processed

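Forebrain and midbrain RNA of E9.5 embryos was sequenced on the Illumina HiSeq platform from directional libraries. The authors aligned reads with TopHat2 to GRCm38/mm10 and deposited FPKM values per gene from Cufflinks, one table per library; HTSeq and DESeq2 are also named, but tool versions and the gene annotation were not given in the sources used here. The 12 DKO tables were grouped by their own headings.

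FPKM was not rescaled. Genes averaging at least 1 FPKM over the 6 libraries compared were tested on log2(FPKM + 1) with limma 3.58.1 (R 4.3.3) with a mean-variance trend and Benjamini-Hochberg adjustment, after a check on simulated data. The tissue comparison used one fit over both tissues with an interaction term. Fragment depth was estimated from whole multiples in 771 genes of at least 4000 bases with 1 transcript (tolerance 0.1). The estimate took the annotated transcript length as the length behind FPKM, and the error from this was not tested. Near-identical copies (80% of the gene covered, 90% identity) were sought with BLAST 2.17.0 in GENCODE M21 transcripts.

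Genes were named from those past adjusted p 0.05, the 8 largest non-overlapping differences in each direction among protein-coding genes of at least 5 FPKM, Cdh6, Cdh8, Cdh11, Fgf15, and the extremes and most abundant member of each list. List members beyond these were chosen after their values were seen, and all groups and lists were chosen with earlier results of these data known. Results for some list members are not reported here.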

Additional observations from a re-analysis of the deposited data

Results flagged for a closer look

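Among 27 sets of 6 WT Mb values, 1 library stood far from the others by Dixon's test for the protein-coding genes Akr1e1, Mtbp and Pdlim1, at 15.2, 16.7 and 24.6 FPKM, where chance gives about 1 in 20 for sets without ties. For Gm10060, Gm9174 and Snhg9 a single WT library was listed at 3818, 11.4 and 173 FPKM with the other 5 at 0, so that Dixon's ratio is 1 by construction and tests nothing. In Gm10060 and Gm9174 the single WT library lay at a level like that of DKO_Ex, and in Snhg9 at a level like that of DKO_CD.

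The difference between DKO_Ex and DKO_CD differed between Mb and Fb for 2 genes by the interaction term in limma. Gm20302 differed by 3.10 (adjusted p = 0.0135), with all 6 DKO Fb libraries listed at 0, so that this value depends on the pseudocount. Tmem141 differed by 2.02 (adjusted p = 0.0183), being higher in DKO_Ex in the Mb and lower in the Fb without overlap in either tissue. Neither passed with the Mb and Fb libraries of one group and number as a block (adjusted p = 0.315 for both, limma), and each lost its call without some single libraries.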

How the results depend on the processing

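The count of 6 Mb genes past the threshold became 3 with a pseudocount of 5 FPKM, 2 with pseudogenes left out, and 0 with a minimum of 1 FPKM in every library or with all 4 groups of the tissue in one fit (757 and 786 genes at an unadjusted p under 0.05, limma). It stayed between 4 and 6 with a pseudocount of 0.1 FPKM, no filter, other scalings, no mean-variance trend and a sex covariate. Leaving out 1 library gave 1 to 10 Mb genes, 1 to 4 Fb genes in place of 1, and 0 to 7 genes that differed by tissue in place of 2. The lowest Mb count, 1, came without DKO_Ex library 3 or DKO_CD library 2, and the highest, 10, without DKO_CD library 1, with 3 without DKO_Ex library 1 or 2. In Fb the count was 4 without DKO_Ex library 1, 3 without DKO_Ex library 2 or DKO_CD library 1, and 2 without DKO_CD library 2. The tissue comparison gave 0 without DKO_Ex Mb library 3 or DKO_CD Mb library 2, 1 without DKO_Ex Mb library 1 or 2, 4 without DKO_CD Mb library 1 or 3 or DKO_Ex Fb library 1 or 2, and 7 without DKO_Ex Fb library 3. In Fb the count was 3 without the mean-variance trend and 0 under the 1 FPKM minimum or the joint fit (657 and 765 genes at an unadjusted p under 0.05, limma). No filter gave 7 genes that differed by tissue. The cause of these changes was not tested beyond the genes and samples that each setting removes.

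With a replicate block the counts were 1 in Mb (Gm10060), 0 in Fb and 0 for the tissue comparison (750, 704 and 771 genes at an unadjusted p under 0.05, limma). The deviations of same-numbered DKO_Ex and DKO_CD libraries correlated at -0.068 to 0.020 in Mb and at -0.0048 to 0.044 in Fb. With few libraries a group, such values cannot show whether these libraries share more than a number. For the tissue comparison the block joined the Mb and Fb libraries of one group and number. Their deviations correlated at 0.028 to 0.137, above 0.1 in 3 of 6 pairs, and Xist and the Y-linked genes gave the same sex in all 6 pairs. Whether a pair came from 1 embryo is not stated, so the 2 calls made without the block rest on treating the libraries as independent.

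Grouping by record turned the fitted differences to -11.18 for Gm10060, -3.73 for Gm9174, -3.10 for Gm20302, 6.58 for Gm23472, 6.51 for Snhg9, 2.64 for Gm12271 and -5.34 for Snora73a in Fb, all of which depend on the pseudocount and are no folds. Of the other gene values under an alternative, 55 no longer passed and 103 moved by more than the spread between libraries. The remaining 1778 kept their call and direction where the gene had passed, or otherwise moved by less than that spread. For genes that had not passed, the sign was not checked. Over 13 settings the medians ranged from 0.25 to 0.79 for midbrain and isthmus, -0.57 to -0.10 for neural crest, -0.53 to -0.20 for mesenchyme, -0.86 to -0.08 for surface ectoderm and -0.35 to -0.06 for dorsal genes. At these depths, low genes such as Cdh8 rest on few fragments. By estimated depth and longest transcript, Cdh8 rested on 11.4 to 35.2 fragments in a DKO Mb library. Of the genes that passed, the same estimate gave 6.2 to 7.4 fragments for Gm20302 where above 0. It gave 5.2 to 5.8 for Gm12271 and 7.4 to 14.6 for Gm9174. For such short transcripts the estimate is likely too high, since values above 0 recurred at few levels. Gm20302 stood at 7.02 to 9.38 FPKM wherever above 0 in the series. Gm12271 stood at 2.40 to 2.84 FPKM in DKO_CD Fb and at 5.10 to 5.55 FPKM in DKO_CD Mb. True numbers of fragments may therefore be lower, which was not tested.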
